A study of Mus musculus with 12 samples.

Results

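The data are RNA sequencing counts of 39 interferon-stimulated genes in astrocytes and microglia sorted from the hippocampus of C57Bl6/J mice. The 39 genes were taken from a fixed list of symbols, made with earlier results of these data known and with no cutoff on their values, and were matched by symbol to Ensembl identifiers. All 39 were found among the 32783 genes of both count tables together. Male mice aged 2 months received bilateral injections into CA1 of an AAV2/9 vector in which the GfaABC1D promoter, active mainly in astrocytes, drove either the murine adenosine A2A receptor gene Adora2a (AAV-A2A) or GFP (AAV-GFP). Hippocampi were collected 2 months later, at 4 months of age. Astrocytes were retained on ACSA-2 microbeads, and the cells that these beads had left were passed over CD11b microbeads to retain microglia. Each fraction had 3 AAV-GFP and 3 AAV-A2A libraries, 12 in all, named here by vector and number. All animals carried a viral vector, so an uninjected hippocampus was not analysed here, and the sort took cells of the hippocampus with and without the vector.

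Interferons bind receptors on the cell surface, and the kinases Jak1 and Tyk2 then phosphorylate transcription factors, among them Stat2. With Irf9 these form a complex that binds the interferon-stimulated response element (ISRE), a short motif before many antiviral genes. The products of these genes sense viral nucleic acids, block viral entry, translation and replication, and in part feed back on the pathway. In the brain both astrocytes and microglia carry interferon receptors, and a class of microglia with high levels of such genes is known from aged and diseased tissue.

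The ISRE core was searched as GAAANNGAAA, on both strands, in the RefSeq promoter windows of the GRCm38.p6 assembly, which run from 250 bases before to 50 bases after each transcription start. Of the 39 genes 28 had a window, and 16 of these 28 (57.1%) held the core, against 3.99% of the 27025 genes with a window. The core of the gamma-activated sequence (GAS core, TTCNNNGAA) was held by 6 of the 28 genes (21.4%), against 9.55% of all genes. The 5 stretches that follow lie before the start of genes whose values are described further on. They are written in the direction of the gene, with the ISRE cores in capitals.
Isg15 (chr4:156200855-156200916, minus strand): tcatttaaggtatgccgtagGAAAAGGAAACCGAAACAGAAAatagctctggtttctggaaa
Ifit1 (chr19:34640765-34640833, plus strand): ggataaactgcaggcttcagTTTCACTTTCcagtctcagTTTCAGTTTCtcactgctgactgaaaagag
Ifit3 (chr19:34583353-34583436, plus strand): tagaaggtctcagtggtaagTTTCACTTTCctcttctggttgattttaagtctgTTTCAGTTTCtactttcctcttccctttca
Ifit3b (chr19:34607749-34607832, plus strand): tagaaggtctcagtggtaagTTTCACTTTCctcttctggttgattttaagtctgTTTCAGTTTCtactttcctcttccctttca
Bst2 (chr8:71537567-71537622, minus strand): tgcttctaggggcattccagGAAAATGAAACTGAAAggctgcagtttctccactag

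In Isg15 the capitals are 3 overlapping cores, the first beginning 78 bases before the start. Ifit1 and Ifit3 each held 2 separate cores, 104 and 85 bases before the start in Ifit1 and 156 and 122 in Ifit3. The stretches of Ifit3 and its neighbour Ifit3b were identical at 84 of 84 bases, so these near copies share their promoter letters as well as much of their coding sequence, and their unique read counts are uncertain. In Ddx58, Ifih1, Ifitm3 and Eif2ak2 the core was found only in the 50 bases after the start. Dtx3l, Irf7, Irf9, Lgals3bp, Samhd1 and Sp100 were among the 12 genes with a window and no core. A match is a match of letters only.

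**Figure D1:**
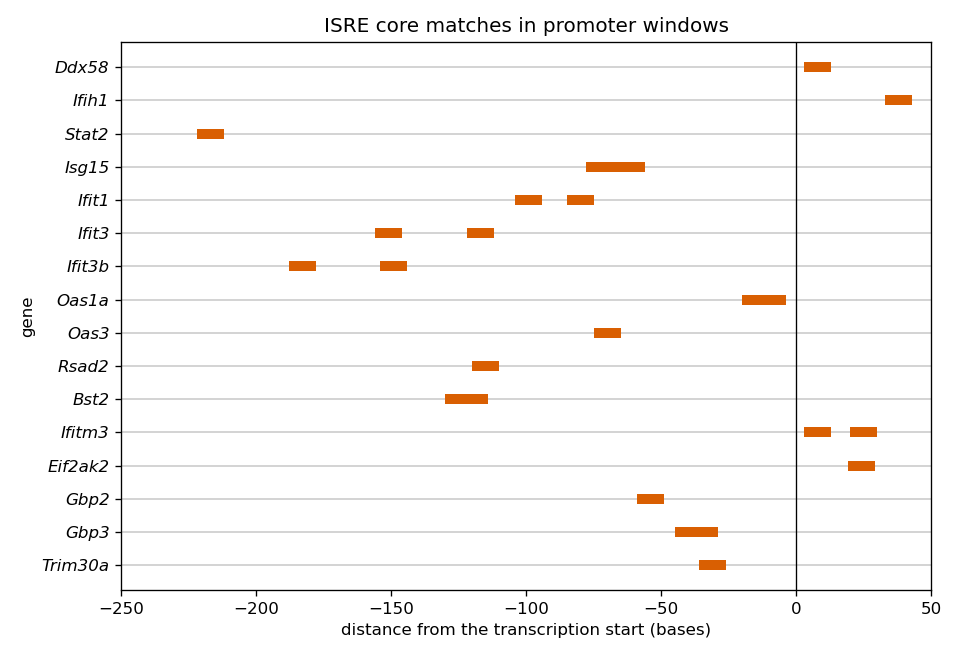
Position of ISRE core matches (orange bars, each 10 bases or several overlapping) relative to the transcription start, in bases, in the first RefSeq promoter window of the 16 genes that held a match. In 12 of the 16 genes a match lies before the start, and in Ddx58, Ifih1, Ifitm3 and Eif2ak2 the matches lie after it.

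Total counts on genes ran from 33937067 to 49217553 in ACSA-2 libraries and from 36098295 to 53206974 in CD11b libraries. Values are given as CPM, the count of a gene as a share of all counts of its library after TMM scaling within the fraction. Series of values follow the order of the library numbers. Adora2a rose from 22.96 to 25.11 CPM in ACSA-2 AAV-GFP libraries to 655.5 to 945.0 in ACSA-2 AAV-A2A libraries (log2 FC 5.02, edgeR adjusted p = 1.55e-05). In CD11b libraries it measured 3.96, 4.79 and 8.07 CPM with AAV-GFP and 17.8, 43.3 and 16.3 with AAV-A2A (log2 FC 2.20, edgeR adjusted p = 0.280, DESeq2 adjusted p = 0.0232). Every AAV-A2A library of CD11b thus lay above every AAV-GFP library, and the source of these reads was not tested. The 8 astrocyte markers summed to 22060 to 36210 CPM in ACSA-2 libraries and to at most 485.5 in CD11b libraries, and the 8 microglia markers to 7778 to 58300 CPM in CD11b libraries and to at most 528.6 in ACSA-2 libraries. Among the CD11b libraries 3 stood apart. The 9 choroid plexus markers summed to 78520 CPM in GFP-2328, 63360 in GFP-2329 and 32780 in A2A-2347, against 11.15 to 110.5 in the other 3, and the microglia markers were lowest in the same 3 libraries (7778, 15600 and 22690 CPM against 47790 to 58300). Other markers separated by vector in this fraction. Erythrocyte markers summed to 987.8 to 6136 CPM in AAV-GFP and 61.6 to 241.9 in AAV-A2A libraries. Endothelial markers summed to 594.7 to 1605 CPM against 365.6 to 511.6, and neuron markers to 22.56 to 118.7 against 4.863 to 9.837. In all 3 lists GFP-2331 was the lowest of the AAV-GFP libraries and still lay above every AAV-A2A library. Markers of monocytes and neutrophils were higher in GFP-2331 and A2A-2343 (490.5 and 427.5 CPM) than in the other 4 (108.0 to 132.8). Because 2 of the 3 libraries rich in choroid plexus markers are AAV-GFP, the CD11b results that the text turns on are given with and without them. The fit without them rests on 1 AAV-GFP and 2 AAV-A2A libraries, with the lone library assumed to vary like the others, and the part of the other cells in it was not tested.

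Per exon length the genes covered a wide range in both fractions. The 5 highest in ACSA-2 libraries were Ifitm3, which blocks viral entry at the endosome, at a mean of 345.9 CPM per kb, then Lgals3bp, a secreted glycoprotein, at 45.1, Bst2, which tethers budding virus to the cell, at 43.2, Ifit3, a binder of viral RNA complexes, at 23.1, and Isg15, a ubiquitin-like modifier, at 10.9. In CD11b libraries they were Ifitm3 at 120.7 CPM per kb, Bst2 at 112.3, Lgals3bp at 104.8, Ifi27l2a, a small mitochondrial membrane protein, at 17.7, and Irf9 at 14.4. In both fractions the same 3 genes led the order, while their ranges over single libraries overlapped in CD11b (51.2 to 153.7 for Ifitm3, 55.1 to 174.2 for Bst2 and 71.0 to 139.4 for Lgals3bp). In ACSA-2 the lowest library for Ifitm3 (253.4 CPM per kb) lay above the highest for Lgals3bp (75.1), and Lgals3bp and Bst2 overlapped. These genes also varied among libraries of 1 vector. In ACSA-2 Lgals3bp measured 78.9, 115.5 and 132.6 CPM with AAV-GFP and 121.0, 108.2 and 213.9 with AAV-A2A. In CD11b it measured 261.6, 202.2 and 287.0 against 397.0, 271.3 and 371.7, and Irf9, the DNA-binding partner of Stat2, 39.9, 50.8 and 103.7 against 107.1, 100.1 and 62.0. The vectors overlapped in all of these, and Irf9 was lowest in the 3 libraries rich in choroid plexus markers. Ifi27l2a in CD11b measured 4.52, 7.74 and 19.7 CPM against 6.46, 2.60 and 7.99, with GFP-2331 far above the others. Bst2 measured 47.0, 55.1 and 36.3 CPM in the AAV-A2A libraries of ACSA-2 and 116.0, 49.7 and 80.9 in those of CD11b, and its AAV-GFP values are given with the fractions. At the other end, Oas3, a synthetase of the second messenger that activates RNase L, had 0 counts in 5 of 6 ACSA-2 libraries and 6 counts in A2A-313, where 3 counts in a library would give 0.0664 to 0.089 CPM. It was the 1 gene not tested in that fraction.

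**Figure D2:**
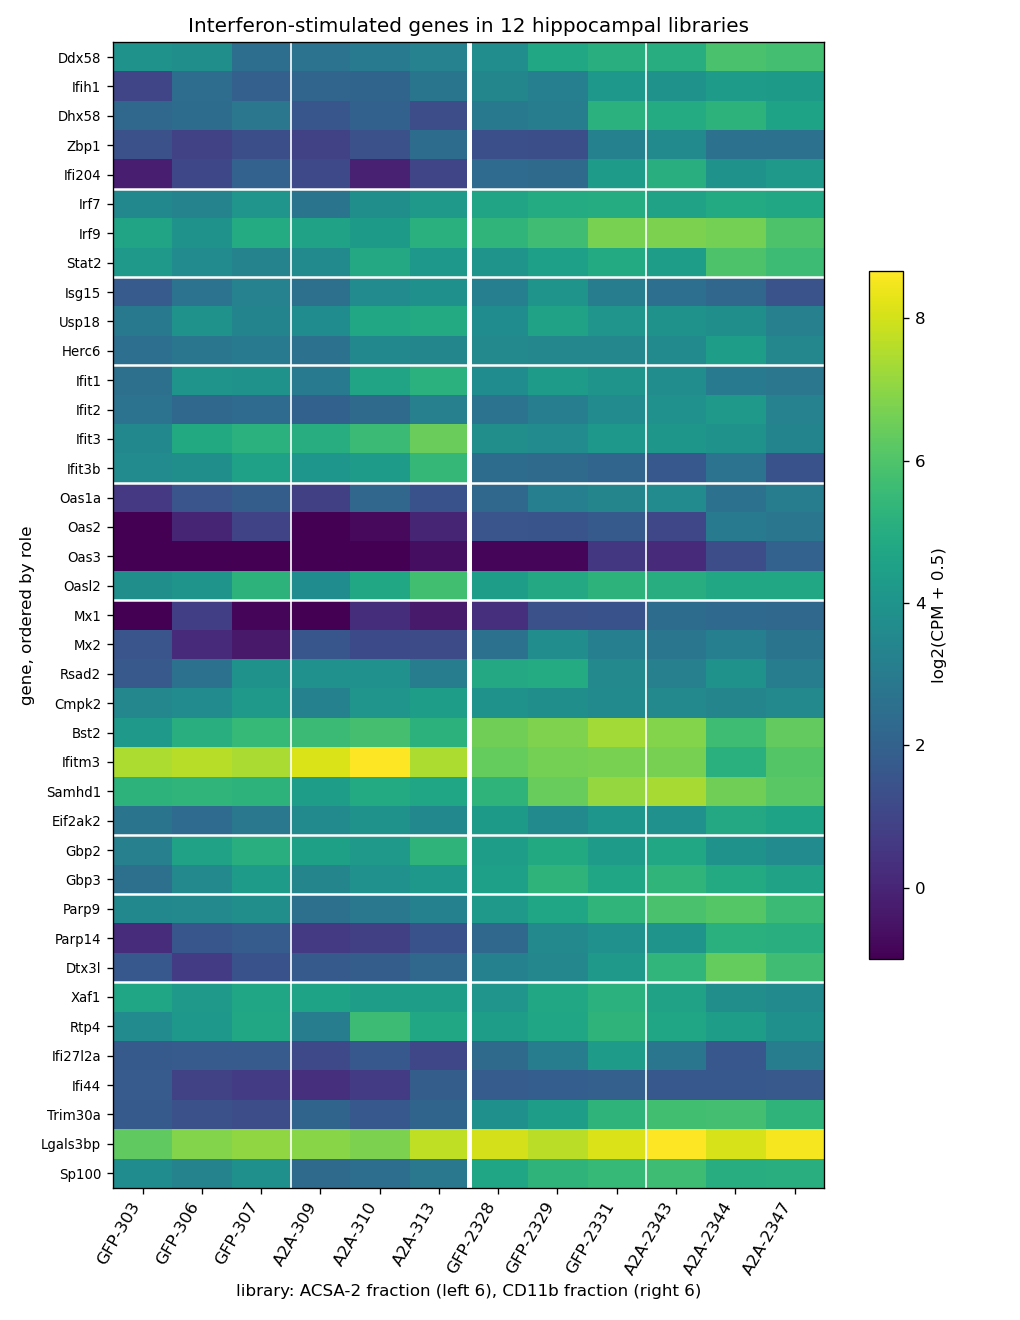
Level of the 39 interferon-stimulated genes as log2(CPM + 0.5) in the 12 libraries, ordered by role with white lines between roles. Ifitm3 and Lgals3bp are the brightest rows of the ACSA-2 libraries, Lgals3bp is the brightest row of the CD11b libraries, and Oas2, Oas3 and Mx1 are among the darkest in the ACSA-2 libraries.

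The first comparison asks how these genes differ between the astrocyte fractions of hippocampi injected with the receptor vector and with the GFP vector. No interferon-stimulated gene passed the threshold in the ACSA-2 fraction. Of the 38 genes tested, 26 had a higher mean log2 level in AAV-A2A libraries, and the median log2 FC was 0.34, against 0.02 over all genes. The genes with the smallest p were not of one direction. Eif2ak2, Usp18, Ifit3 and Ifitm3 were higher, and Sp100 and Samhd1 were lower. The test was edgeR's quasi-likelihood test with Benjamini-Hochberg adjustment over all genes, and a call needed an adjusted p below 0.05 and an absolute log2 FC above 0.32. By this rule 3.36% of the 16451 genes tested were called. At an unadjusted p below 0.05 there were 6 of 38 members, 4 higher and 2 lower, against 13% of all genes, 4.31% higher and 8.7% lower. DESeq2 called 2 members, Eif2ak2 and Sp100, against 7.13% of its genes.

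Eif2ak2, the kinase PKR that halts translation on sensing double-stranded RNA, measured 6.005 CPM in GFP-303, 4.75 in GFP-306 and 6.79 in GFP-307, against 11.4 in A2A-309, 14.5 in A2A-310 and 10.8 in A2A-313. The groups did not overlap, and the log2 FC was 1.07 ± 0.34 (SE, n = 3 per group, edgeR adjusted p = 0.164, DESeq2 adjusted p = 0.0178). With Dtx3l it was 1 of 2 members whose AAV-A2A libraries all lay above the AAV-GFP libraries, against 8.6% of all genes. Leaving out each library in turn gave 0.93 to 1.18.

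Sp100, a component of nuclear bodies, moved the other way. It measured 12.4, 9.40 and 13.7 CPM in AAV-GFP libraries and 4.60, 5.13 and 6.89 in AAV-A2A libraries (log2 FC -1.09 ± 0.35, edgeR adjusted p = 0.176, DESeq2 adjusted p = 0.0240). Samhd1, which hydrolyses the nucleotides that reverse transcription needs, was tight in AAV-GFP libraries at 37.3, 39.1 and 37.9 CPM and lower at 21.1, 29.4 and 24.8 in AAV-A2A libraries (log2 FC -0.60 ± 0.22, edgeR adjusted p = 0.253). These 2 genes, Dhx58, Parp9 and Ifi27l2a made up the 5 members whose AAV-A2A libraries all lay below the AAV-GFP libraries, against 10.9% of all genes.

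The ISG15 and IFIT genes held the higher values in AAV-A2A libraries without a clean separation. Usp18, the protease that removes Isg15 from proteins and dampens the receptor, measured 7.05, 14.6 and 9.86 CPM in AAV-GFP libraries and 12.6, 26.6 and 29.8 in AAV-A2A libraries (log2 FC 1.13 ± 0.40, edgeR adjusted p = 0.230). Ifit3 measured 10.8, 28.9 and 35.5 CPM against 31.7, 47.4 and 87.5 (log2 FC 1.15 ± 0.47, edgeR adjusted p = 0.326). In both genes A2A-309 fell within the AAV-GFP range and A2A-313 was the highest. All 3 genes of the ISG15 group and all 4 of the IFIT family had a positive log2 FC, from 0.48 to 1.13 and from 0.16 to 1.15, and 0 of these 7 were called. Ifitm3 measured 177.5, 197.7 and 171.8 CPM against 277.7, 404.0 and 178.3, so that A2A-313 here lay close to the controls (log2 FC 0.65 ± 0.27, edgeR adjusted p = 0.327).

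No gene of the other roles was called. Of the sensors Ifih1 and Zbp1 had a positive log2 FC (0.53 and 0.58) and Ddx58, Dhx58 and Ifi204 a negative one (-0.56, -0.99 and -0.63). The transcription factors Irf7, Irf9 and Stat2 lay between 0.06 and 0.54. The synthetase genes Oas1a and Oasl2 were at 0.21 and 0.48, and Oas2, at 0 to 1.49 CPM in single libraries, was at -1.75 ± 1.76. Gbp2 and Gbp3, guanylate-binding proteins that attack the membranes of pathogens, were at 0.24 and 0.20, and Mx1 and Mx2 were at -0.37 ± 1.82 and 0.86 ± 0.93. Rsad2 (viperin) and Cmpk2, adjacent genes that make an antiviral nucleotide, were at 0.62 and 0.17. Bst2, Rtp4, Trim30a and Lgals3bp lay between 0.44 and 0.59, and Xaf1 and Ifi44 at -0.12 and -0.14. Isg15 itself measured 2.90, 5.96 and 9.33 CPM against 5.49, 12.0 and 13.8, with A2A-309 within the AAV-GFP range (log2 FC 0.78 ± 0.51, edgeR adjusted p = 0.620). Of the 15 genes tested whose promoter window held an ISRE core, 14 had a positive log2 FC (median 0.59), against 8 of the 12 whose window held none (median 0.15) and 4 of the 11 with no window (median -0.46). This split is a description with no test, and it was not repeated with single libraries left out.

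Single libraries carried much of the order in this fraction. A2A-313 held the highest value of 16 of the 38 members (42.1%), among them Isg15, Usp18, Irf7, Irf9, Oasl2 and all 4 IFIT genes, while it held the highest value of 17.7% of all genes tested. GFP-303 held the lowest value of 17 members (44.7%), against 20.6% of all genes. Without A2A-313 the median log2 FC of the members was -0.04, and without GFP-303 it was 0.20. The median therefore changed sign with 1 library, and no direction is given for the group. A2A-313 also had the highest sum of astrocyte markers (36210 CPM, at most 26040 elsewhere in the fraction) and the lowest of ependymal markers (459.7 CPM, at least 1035 elsewhere), and the part of these in the result was not tested.

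**Figure D3:**
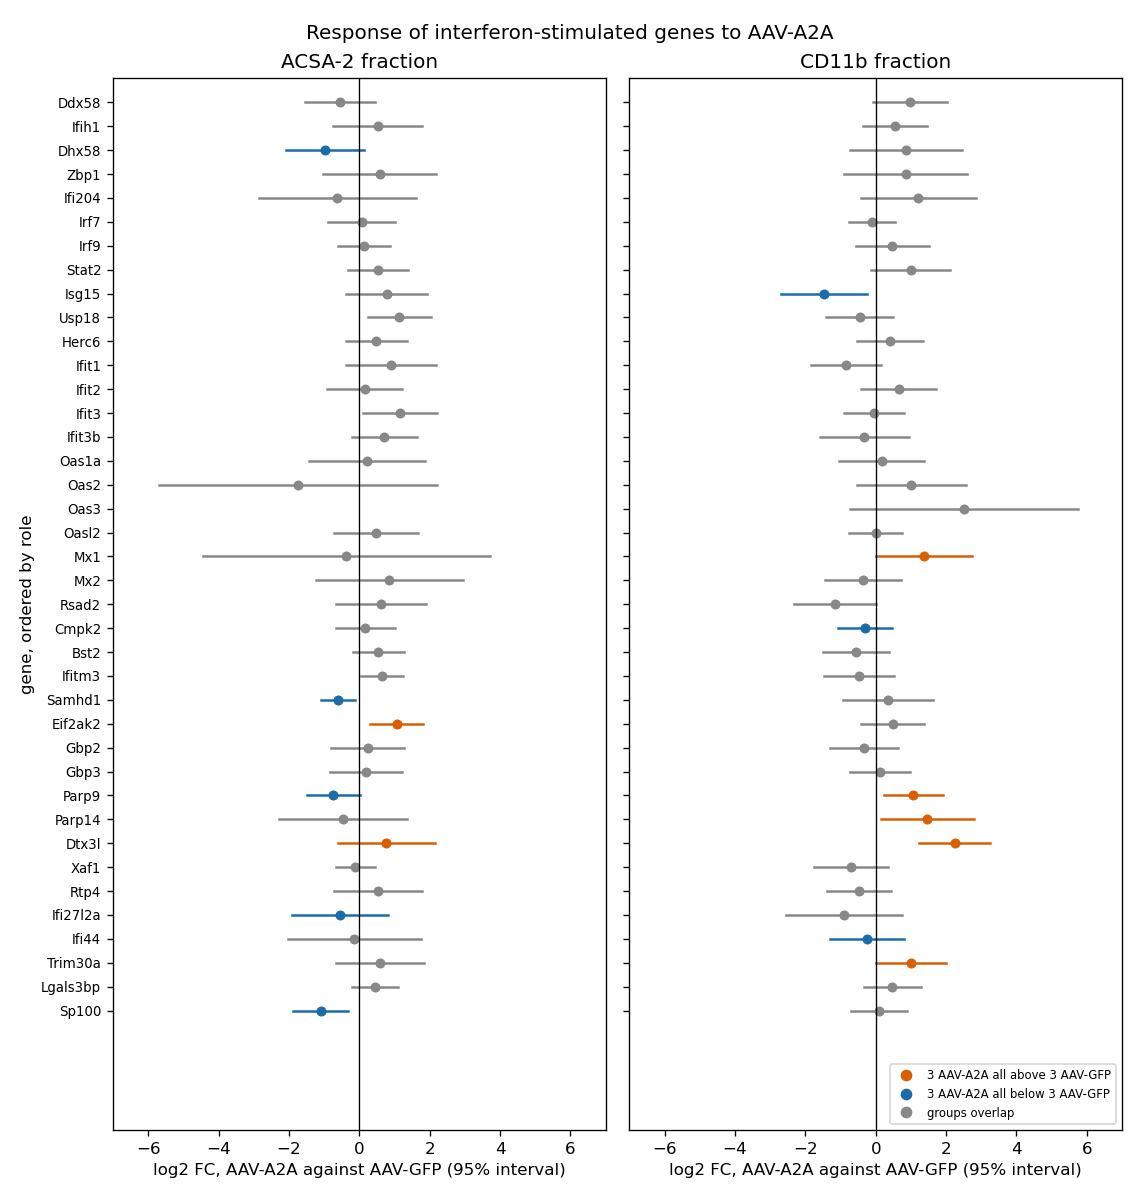
Log2 FC of AAV-A2A against AAV-GFP libraries with its 95% interval for the interferon-stimulated genes in the ACSA-2 fraction (left, 38 genes) and the CD11b fraction (right, 39 genes). Colour marks the genes whose 3 AAV-A2A libraries all lie above (2 and 5 genes) or all below (5 and 3 genes) the 3 AAV-GFP libraries. Over all genes 8.6% (ACSA-2) and 12.6% (CD11b) lay above, and 10.9% lay below in each fraction. No interferon-stimulated gene passed the adjusted threshold in either fraction.

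The second comparison asks the same of microglia, in which the GfaABC1D promoter was not meant to be active. In the CD11b fraction no interferon-stimulated gene passed the threshold either. Dtx3l, Parp9 and Parp14, neighbours on chromosome 16 that act together in ADP-ribosylation and ubiquitination, had higher values in every AAV-A2A library than in any AAV-GFP library. Isg15 had lower values in every AAV-A2A library. Of the members 12.8% lay wholly above the controls, close to the 12.6% of all genes. Wholly below lay 7.69% of the members, against 10.9% of all genes. Of 39 genes tested 22 had a positive log2 FC, with a median of 0.17 against -0.05 over all genes. edgeR called 0% of the 16949 genes tested, so that the test had no call for any gene of this fraction. At an unadjusted p below 0.05 there were 5 members, 4 higher and 1 lower, against 16% of all genes, 9.68% higher and 6.27% lower. DESeq2 called 1 member, Dtx3l, and 2.9% of its genes.

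Dtx3l (ENSMUSG00000049502, chr16:35926511-35939151, minus strand), a ubiquitin ligase, measured 8.91 CPM in GFP-2328, 10.5 in GFP-2329 and 17.9 in GFP-2331, against 41.0 in A2A-2343, 83.3 in A2A-2344 and 51.7 in A2A-2347. The lowest AAV-A2A library lay above the highest AAV-GFP library, with a log2 FC of 2.24 ± 0.42 (SE, n = 3 per group, 95% interval 1.23 to 3.25, edgeR adjusted p = 0.280, DESeq2 adjusted p = 0.00542). Leaving out each library in turn gave 1.89 to 2.60. Among the libraries rich in choroid plexus markers Dtx3l was 51.7 CPM in A2A-2347 against 8.91 and 10.5 with AAV-GFP. Among the other 3 it was 41.0 and 83.3 against 17.9. Erythrocyte, endothelial and neuron markers were higher with AAV-GFP in both of these sets, and the part of other cells was not tested. Without the 3 rich libraries the log2 FC was 1.80, with 1 AAV-GFP library left. With the choroid plexus level as a covariate it was 1.98 (edgeR adjusted p = 0.251).

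Parp9 (ENSMUSG00000022906, chr16:35938470-35972605, plus strand), the partner of Dtx3l, measured 18.3, 26.1 and 39.05 CPM in AAV-GFP and 59.4, 67.9 and 47.4 in AAV-A2A libraries (log2 FC 1.06 ± 0.35, edgeR adjusted p = 0.281). Parp14 (ENSMUSG00000034422, chr16:35832874-35871544, minus strand), a mono-ADP-ribosyltransferase, measured 4.18, 11.1 and 14.4 CPM against 15.4, 34.2 and 32.8 (log2 FC 1.47 ± 0.56, edgeR adjusted p = 0.294). The groups of both genes were separate, though in Parp14 the gap between GFP-2331 and A2A-2343 was small. Dtx3l and Parp9 overlap by 682 bases on opposite strands, which makes up 8.0% of the exon length of Dtx3l and 9.4% of that of Parp9. Reads that fitted more than 1 gene were dropped in the counting, the library kit does not keep the strand, and the strand setting of the counting is not given in the sources used here. Without the 3 libraries rich in choroid plexus markers the log2 FC was 0.71 for Parp9 and 0.79 for Parp14.

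Isg15 measured 8.46, 15.6 and 7.99 CPM in AAV-GFP and 5.21, 4.07 and 2.28 in AAV-A2A libraries. It thus stood lower in all AAV-A2A libraries (log2 FC -1.47 ± 0.51, edgeR adjusted p = 0.286), and without the 3 rich libraries the log2 FC was -0.78. Its partner Usp18 overlapped between the groups at 12.3, 23.0 and 16.0 CPM against 15.2, 13.6 and 8.70 (log2 FC -0.45, and -0.15 without the 3 rich libraries). Mx1 measured 0.769, 2.16 and 2.23 CPM against 4.80, 4.39 and 4.22 (log2 FC 1.38 ± 0.58, edgeR adjusted p = 0.313), and without the 3 rich libraries the log2 FC was 1.04. In all, 5 members lay wholly above the controls (Dtx3l, Parp9, Parp14, Mx1 and Trim30a), against 12.6% of all genes, and 3 wholly below (Isg15, Cmpk2 and Ifi44), against 10.9%.

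In the other genes of the CD11b fraction the vectors overlapped. All 5 sensors of nucleic acids (Ddx58, Ifih1, Dhx58, Zbp1 and Ifi204) had a positive log2 FC, from 0.55 to 1.21, and 0 were called. Without the 3 rich libraries this shared sign was lost, with Ifih1 at -0.0028, Dhx58 at -0.059 and Zbp1 at -0.0013, while Ddx58 was at 0.43 and Ifi204 at 0.32. For Dhx58, the regulator of the RNA sensors, GFP-2328 and GFP-2329 measured 6.92 and 8.05 CPM, GFP-2331 measured 35.3, and the AAV-A2A libraries measured 30.3, 37.2 and 23.7. GFP-2331, the control poor in choroid plexus markers, lay within the AAV-A2A range. Dhx58, Zbp1, Ifit2, Ifit3, Irf9 and Samhd1 were lower in all 3 rich libraries than in all 3 others, 6 of 39 members, against 13.5% of all genes. In the other direction, 0 of 39 members were higher in all 3 rich libraries, against 20.6% of all genes. Ifit1 measured 12.6, 19.8 and 15.6 CPM against 12.97, 7.13 and 6.67 (log2 FC -0.84 ± 0.42, edgeR adjusted p = 0.368), and Rsad2 28.3, 30.1 and 11.3 against 8.75, 14.8 and 7.98 (log2 FC -1.15 ± 0.49, edgeR adjusted p = 0.317). In Rsad2 GFP-2331 also fell within the AAV-A2A range. In Isg15, Dtx3l, Parp9, Parp14 and Mx1 it lay outside that range, and the part of the choroid plexus in these values was not tested. Without the 3 rich libraries Ifit1 was at -0.63 and Rsad2 at 0.060. Ifit2, Ifit3 and Ifit3b were at 0.66, -0.05 and -0.32, so the IFIT family did not share a sign. Oas1a, Oas2, Oas3 and Oasl2 were at 0.17, 1.01, 2.51 and -0.004, Irf7, Irf9 and Stat2 at -0.10, 0.47 and 0.99, and Gbp2 and Gbp3 at -0.33 and 0.12. Eif2ak2, Samhd1, Herc6, Lgals3bp and Sp100 lay between 0.10 and 0.48, and Mx2, Bst2, Ifitm3, Xaf1, Rtp4 and Ifi27l2a between -0.91 and -0.36. Of the 16 genes with an ISRE core in the window 8 had a positive log2 FC, and of the 12 without, 7. The median log2 FC of the members was -0.053 without GFP-2328, -0.052 without A2A-2343 and -0.0013 without the 3 rich libraries, so that no direction is given for the group here either.

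**Figure D4:**
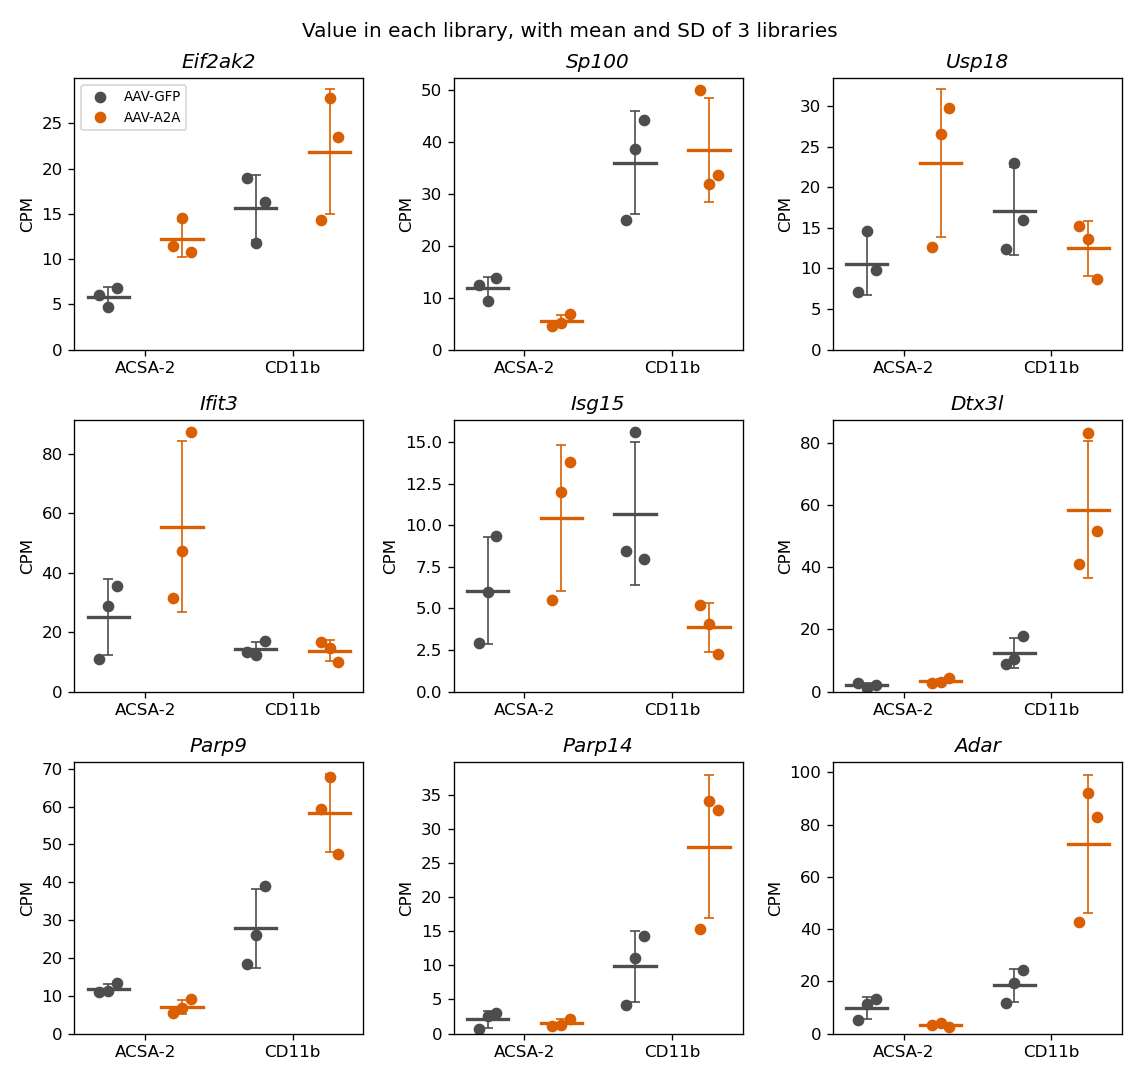
CPM of 8 interferon-stimulated genes and the editing enzyme gene Adar in each library (points), with the mean and SD of 3 libraries (lines), for AAV-GFP (grey) and AAV-A2A (orange) in both fractions. Dtx3l, Parp9 and Parp14 separate in CD11b and Eif2ak2 and Sp100 in ACSA-2, and Parp9 and Adar are lower with AAV-A2A in ACSA-2 and higher in CD11b.

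The difference between the fractions in the response was tested directly, as the log2 FC in CD11b less that in ACSA-2. No interferon-stimulated gene passed the threshold, and 0.39% of the 18995 genes tested did. At an unadjusted p below 0.05 there were 8 of 39 members, 6 with a positive and 2 with a negative difference. Over all genes it was 19.2%, 2104 positive and 1538 negative. Parp9 had the smallest p, at a difference of 1.86 ± 0.48 (95% interval 0.80 to 2.92, edgeR adjusted p = 0.0895, DESeq2 adjusted p = 0.0172). In the ACSA-2 fraction it measured 10.9, 11.2 and 13.3 CPM in AAV-GFP and 5.43, 6.79 and 9.06 in AAV-A2A libraries, the reverse of its order in CD11b. It was the 1 member of 38 tested in both fractions whose AAV-A2A libraries lay wholly below the controls in ACSA-2 and wholly above them in CD11b, against 2.21% of all genes, and 0 members showed the opposite pattern, against 1.51%. DESeq2 called Parp9 alone of the members, and 9.02% of its genes. Besides Parp9, the positive ones were Sp100 (1.25), Dtx3l (1.525), Ddx58 (1.56), Dhx58 (1.88) and Parp14 (1.96). The 2 negative ones were Isg15 and Usp18, the modifier and its protease. They had differences of -2.17 ± 0.80 and -1.51 ± 0.62, with edgeR adjusted p of 0.173 and 0.213. In CD11b alone their log2 FC without the 3 rich libraries was -0.78 and -0.15. Without GFP-2331 edgeR called 2 members, Parp9 at 2.23 and Dhx58 at 3.11. The share of all genes called in that fit is not given here. Without the 3 rich libraries the difference for Parp9 was 1.505.

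The levels of the genes in the fractions were compared in the AAV-GFP libraries alone. Trim30a, Mx2, Dtx3l, Bst2, Sp100, Eif2ak2, Irf7 and Lgals3bp were higher in CD11b than in ACSA-2 libraries, and Ifit3b and Ifitm3 were lower. Of 38 genes tested 34 had a positive log2 FC, with a median of 1.19 against 0.09 over all genes. The test called 10 of 38 members (26.3%), 8 higher in CD11b and 2 lower, against 26.7% of the 17110 genes tested, 13.7% higher and 12.9% lower. The share called was thus close to that of all genes. The fractions were deposited as separate tables, and any batch that goes with the fraction cannot be told apart from it, and in bulk RNA fewer cells of a type and less RNA per cell cannot be told apart either.

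Trim30a, a restrainer of inflammatory signalling with several close paralogs, measured 2.80, 2.14 and 1.94 CPM in ACSA-2 and 13.8, 20.9 and 38.3 in CD11b AAV-GFP libraries (log2 FC 3.38 ± 0.51, edgeR adjusted p = 0.00616). Of the interferon-stimulated genes called between the fractions, it alone stayed past the threshold in each of the 6 fits that left out 1 library. Mx2, the paralog of Mx1 and annotated as a polymorphic pseudogene, measured 2.43, 0.623 and 0.288 against 5.60, 12.9 and 8.55 (log2 FC 2.97 ± 0.88, edgeR adjusted p = 0.0472). Dtx3l measured 2.65, 1.13 and 2.18 against 8.91, 10.5 and 17.9 (log2 FC 2.61 ± 0.54, edgeR adjusted p = 0.0156). None of these 3 genes overlapped between the fractions.

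Bst2 measured 18.2, 32.8 and 44.4 CPM in ACSA-2 and 93.6, 110.7 and 157.3 in CD11b libraries (log2 FC 1.89 ± 0.40, edgeR adjusted p = 0.0170). Sp100 measured 12.4, 9.40 and 13.7 against 25.1, 38.7 and 44.4 (log2 FC 1.57 ± 0.35, edgeR adjusted p = 0.0182), and Eif2ak2 6.005, 4.75 and 6.79 against 18.9, 11.8 and 16.3 (log2 FC 1.38 ± 0.36, edgeR adjusted p = 0.0316). Irf7, the factor that amplifies interferon production, and Lgals3bp were also called higher, at 1.20 and 1.16. Each of these genes was separate between the fractions.

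The 2 genes lower in CD11b were Ifit3b and Ifitm3. Ifit3b measured 12.2, 13.6 and 22.5 CPM in ACSA-2 and 4.89, 4.60 and 3.98 in CD11b libraries (log2 FC -1.89 ± 0.39, edgeR adjusted p = 0.0148). Its near copy Ifit3 was also lower, at -0.86 ± 0.47, without passing the threshold (edgeR adjusted p = 0.220). Ifitm3 measured 177.5, 197.7 and 171.8 against 81.9, 100.2 and 104.2 (log2 FC -0.97 ± 0.23, edgeR adjusted p = 0.0226). The number called depended on single libraries: 2 members were called without GFP-306 or without GFP-2329, and 4 without GFP-303 or without GFP-307. The share of all genes called in those fits is not given here. DESeq2 called 18 members, against 35.3% of its genes. Without both CD11b libraries rich in choroid plexus markers Trim30a was at 4.11, and Eif2ak2, Mx2, Ifit3b and Ifitm3 were no longer called.

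**Figure D5:**
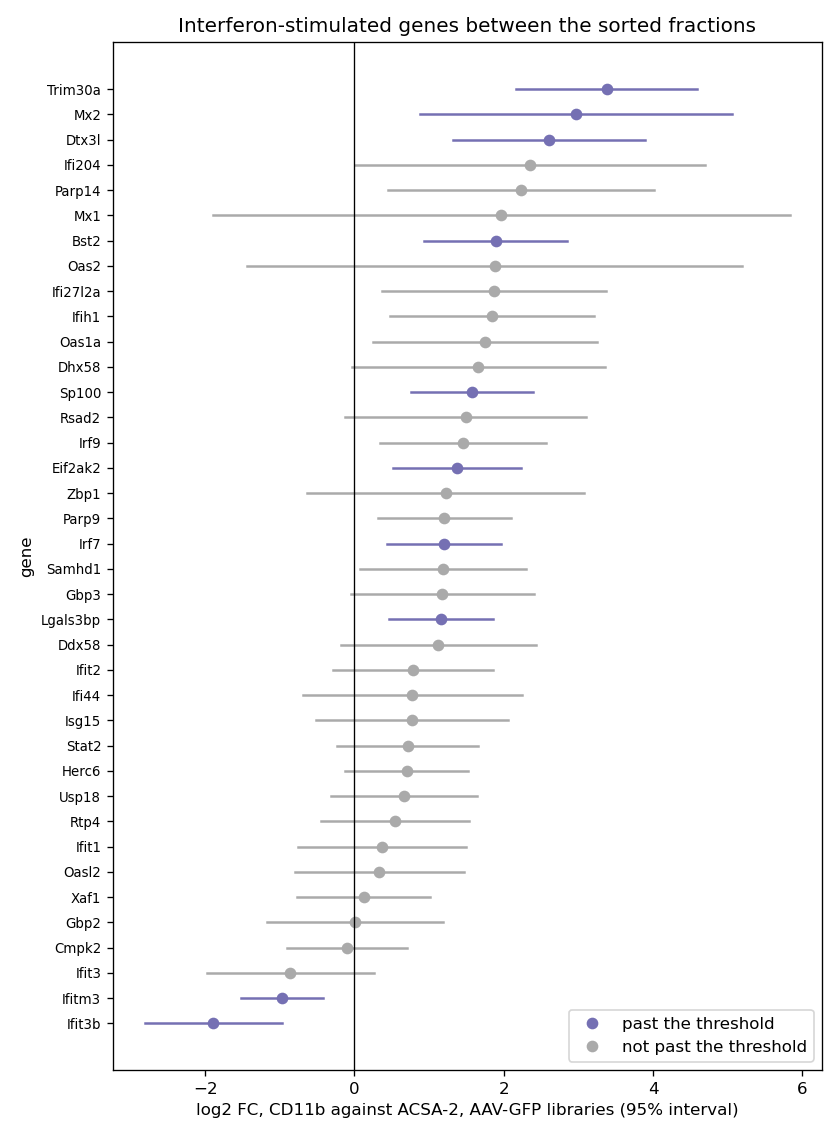
Log2 FC of CD11b against ACSA-2 AAV-GFP libraries with its 95% interval for the 38 interferon-stimulated genes tested, in order of size, with the 10 genes past the threshold in purple. Trim30a is at the top with 3.38 and Ifit3b at the bottom with -1.89, and 34 of 38 points lie right of zero.

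Of 42 other genes of the pathway, fixed as a list of ligands, receptors, kinases, transcription factors, upstream sensors and restraining factors, 30 were tested in ACSA-2 and 33 in CD11b, and edgeR called 0 for the vector in either. DESeq2 called Adar and Cgas in ACSA-2 and Adar in CD11b. In CD11b libraries 27 of 33 had a positive log2 FC, with a median of 0.76 against -0.05 over all genes. At an unadjusted p below 0.05, 9 were higher and 0 lower, against 9.68% and 6.27% of all genes. Without the 3 libraries rich in choroid plexus markers, which also had the lowest microglia markers, 23 of 31 had a positive log2 FC. The median was 0.32. Over all genes in that fit 51.8% were positive, with a median of 0.037. The part of the other cells in the values from all libraries was not tested. The kinases Jak1, Jak2 and Tyk2 were among the 9. In ACSA-2 libraries 13 of 30 had a positive log2 FC, with a median of -0.06. Of the interferon ligands Ifnb1 and Ifng were in a table, and Ifng was tested, in CD11b (log2 FC -0.61), while the other 7 were not analysed here.

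Adar, which edits double-stranded RNA and keeps it from the RNA sensors, had the smallest p of the list in both fractions. It measured 5.25, 11.2 and 13.3 CPM in AAV-GFP and 3.38, 3.90 and 2.61 in AAV-A2A libraries of ACSA-2 (log2 FC -1.59 ± 0.45, edgeR adjusted p = 0.120, DESeq2 adjusted p = 0.0118). In CD11b it measured 11.7, 19.5 and 24.3 against 42.5, 92.2 and 82.9 (log2 FC 1.97 ± 0.43, edgeR adjusted p = 0.280, DESeq2 adjusted p = 0.0191), and without the 3 rich libraries the log2 FC was 1.47. The groups were separate in both fractions and in opposite directions. The test of the difference called Adar, at 3.59 ± 0.62 (95% interval 2.23 to 4.94, edgeR adjusted p = 0.0449). The call was lost with RLE size factors (edgeR adjusted p = 0.0517) and with limma-voom (adjusted p = 0.0627). It was also lost without the 3 rich libraries (3.11) and in 10 of 12 fits that left out 1 library. DESeq2 called the difference for Adar (3.53, adjusted p = 2.66e-05), Ifnar1, Jak2 and Tyk2. These were 4 of 32 pathway genes (12.5%), against 9.02% of its genes.

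In ACSA-2, Cgas, the sensor of cytosolic DNA, had 2, 6 and 1 counts in AAV-GFP and 33, 71 and 24 in AAV-A2A libraries (log2 FC 3.59 ± 1.21, edgeR adjusted p = 0.203). It was called by DESeq2 (adjusted p = 0.0456) and by edgeR with all 12 libraries in the fit (adjusted p = 0.0483). In CD11b, Jak2, a kinase of the interferon gamma receptor, measured 17.1, 15.2 and 24.1 CPM against 28.5, 88.3 and 61.1 (log2 FC 1.65 ± 0.46, edgeR adjusted p = 0.280), and Tlr3, the endosomal sensor of double-stranded RNA, 24.2, 27.4 and 57.1 against 88.6, 134.2 and 82.3 (log2 FC 1.49 ± 0.42, edgeR adjusted p = 0.280). Each of these genes was separate between the vectors, and without the 3 rich libraries Jak2 was at 1.28 and Tlr3 at 0.97. Between the fractions 15 of 31 pathway genes tested were called, all higher in CD11b, against 26.7% of all genes called and 13.7% called higher, among them the receptors Ifnar2, Ifngr1, Ifngr2 and Il10rb.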

How the data were processed

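The authors trimmed the reads with cutadapt 1.10, aligned them to mm10 (GRCm38) with STAR 2.5.3 and counted unambiguous reads per Ensembl gene with HTSeq 0.6.1p1, per the submitters' processing notes and the study's methods, and deposited the raw count of reads per gene and library without normalization. Full-length cDNA was amplified from low input without molecular identifiers, so counts include PCR copies and floors cover counting error only. The CD11b table held 25 unnamed empty columns, which were not used. Groups were taken from the sample labels. Libraries of a group carry different numbers, and the study's supplement gives 3 animals per group for the astrocyte data. For the CD11b libraries the sources used here do not say that each came from its own animal, so p-values there may measure technical spread. Pairs of libraries of 1 group differed by 51.6 or more in chi-square per degree of freedom, so none was counted as a repeat.

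The tests were edgeR 4.0.16 (TMM, filterByExpr, robust quasi-likelihood) on all genes in R 4.3.3, with DESeq2 1.42.0 and limma-voom (limma 3.58.1) as alternatives, besides RLE factors, no filter, all 12 libraries in the fit, adjusted p alone and each library left out. The fits without the libraries rich in choroid plexus markers and with that level as a covariate were chosen after seeing the data. The scripts were tested on simulated counts. The members, roles and lists were chosen with earlier results of these data known. Named with values in every library were members called in any comparison (of the fractions the 6 largest each way), the 5 highest per length and the 5 with the smallest p in each fraction, the 3 pathway genes with the smallest p, and Adora2a. One result that this rule selects is not reported here. Dhx58, Ifit1 and Rsad2 in CD11b and Ifnar1 were chosen after their values were seen. Exon lengths are from GENCODE vM21, promoter windows from RefSeq on GRCm38.p6. Figures were drawn with matplotlib in Python.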

Additional observations from a re-analysis of the deposited data

Results flagged for a closer look

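In 3 genes all AAV-A2A libraries lay on opposite sides of the AAV-GFP libraries in the 2 fractions, lower in ACSA-2 and higher in CD11b. These were 1 of 38 interferon-stimulated genes and 2 of 30 other pathway genes tested in both fractions, against 2.21% of all 14961 genes. The log2 response in CD11b less that in ACSA-2 was 1.86 for Parp9 (edgeR adjusted p = 0.0895), 1.52 for Ifnar1, a chain of the type I interferon receptor (edgeR adjusted p = 0.106), and 3.59 for Adar (edgeR adjusted p = 0.0449). Ifnar1 measured 52.7, 39.5 and 39.1 CPM in AAV-GFP and 29.1, 36.9 and 37.5 in AAV-A2A libraries of ACSA-2, and 43.3, 62.4 and 86.6 against 108.9, 169.1 and 142.5 in CD11b. Its log2 FC was -0.34 ± 0.22 in ACSA-2 (edgeR adjusted p = 0.616) and 1.13 ± 0.35 in CD11b (edgeR adjusted p = 0.280). Without the 3 libraries rich in choroid plexus markers the CD11b value was 0.69. Only Adar passed with the main test, and DESeq2 also called Parp9 and Ifnar1 (adjusted p = 0.0172 and 0.0359). The fractions were deposited as separate tables, and the choroid plexus markers differed among the CD11b libraries as given in the report. Their part in these differences was not tested.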

How the results depend on the processing

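No paired analysis was possible because the groups compared share no replicate numbers. The number of members called stayed at 0 for the vector in both fractions with RLE factors, no filter, limma-voom, all 12 libraries, adjusted p alone and with each library left out, and with DESeq2 it was 2 in ACSA-2 and 1 in CD11b. For the difference between fractions it was 1 with DESeq2 and 0 to 2 with a library left out. Between the fractions it was 18 with DESeq2 and 2 to 10 with a library left out. The shares of all genes called with a library left out are not given here. The median log2 FC of the members changed sign without A2A-313 in ACSA-2 (-0.043, range over left-out libraries -0.043 to 0.506) and without GFP-2328 (-0.053) or A2A-2343 (-0.052) in CD11b (range -0.053 to 0.406), and was -0.0013 without the 3 libraries rich in choroid plexus markers. The cause was not tested. None of the genes named by the rule changed direction, in the comparison it was named for, under any alternative run. With 3 libraries per group and a CD11b fraction in which 0 genes were called by edgeR and limma-voom, but 2704 had an unadjusted edgeR p below 0.05 and DESeq2 called 502, a missed threshold does not show the absence of a response.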
